A study of Mus musculus with 12 samples.

Results

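The subject is 8 genes of deoxynucleotide synthesis and of the enzymes that keep uracil out of DNA, Tk1, Tyms, Rrm1, Rrm2, Rrm2b, Dck, Dut and Ung, in mouse embryonic fibroblasts (MEFs) with and without the retinoblastoma gene. A member was every probe set (the group of short probes that stands for a transcript on the array) that the platform annotation gave to 1 of these symbols alone, which found 16 of 22690 probe sets and all 8 genes, of 12393 genes named in this way. Primary fibroblasts from 13.5-day embryos, used at passage 2, formed 4 groups: Rb null cells with 16 µM cisplatin for 24 h, wildtype cells with the same treatment, untreated Rb null cells and untreated wildtype cells. Cisplatin is a platinum drug that crosslinks DNA, and Rb null cells carry Rb-/-, the loss of the gene that encodes the retinoblastoma protein. The design speaks of 4 RNA samples with 3 hybridizations each, so n = 3 below counts arrays, and the p-values may measure only hybridization spread. The strain, the number of embryos and any pooling of them are not given in the labels.

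Ribonucleotide reductase makes deoxynucleotides from ribonucleotides with a large subunit, encoded by Rrm1, and a small subunit, encoded by Rrm2 in S phase or by Rrm2b, the p53-inducible form. Thymidine kinase (Tk1) and deoxycytidine kinase (Dck) recover nucleosides, thymidylate synthase (Tyms) turns dUMP into dTMP, and dUTPase (Dut) removes dUTP before it enters DNA. Ung encodes the glycosylase that cuts uracil out of DNA. Genes of this set that serve S phase are textbook targets of E2F, the transcription factor that the retinoblastoma protein restrains.

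The members lie on autosomes. In GRCm38.p6, per RefSeq, Rrm1 spans bases 102441695 to 102469771 of chromosome 7, Rrm2 24708254 to 24714146 of chromosome 12 and Rrm2b 37923952 to 37961119 of chromosome 15. Tk1 spans 117815519 to 117826087 of chromosome 11 and Dut 125247248 to 125259049 of chromosome 2. Chromosome 5 holds Tyms (30038546 to 30073645), Dck (88765013 to 88783277) and Ung (114130366 to 114139321). Where in these genes the probes lie was not analysed here.

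Promoter windows from RefSeq (GRCm38.p6) were found for 7 of the 8 genes. Each window is set by the start of 1 annotated transcript, and 4 of the 7 reach into the gene span given above: Dut with all 250 bases, Tk1 with 73, Ung with 69 and Tyms with 20. The 250 bases before that transcript start are shown for 4 of them, because Rrm2 and Dck rose with cisplatin in both genotypes, while Rrm1 and Tk1 were lower with cisplatin in Rb null cells. Capitals mark CCAAT boxes, GC boxes (GGGCGG) and the element TTTGAA, each on either strand.
Rrm2, chr12:24708004-24708253, plus strand: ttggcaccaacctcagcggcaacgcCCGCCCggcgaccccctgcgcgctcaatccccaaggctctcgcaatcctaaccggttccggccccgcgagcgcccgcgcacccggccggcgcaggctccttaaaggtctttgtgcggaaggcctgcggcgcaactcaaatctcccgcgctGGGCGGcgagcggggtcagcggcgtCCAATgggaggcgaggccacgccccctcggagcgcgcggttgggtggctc
Dck, chr5:88764763-88765012, plus strand: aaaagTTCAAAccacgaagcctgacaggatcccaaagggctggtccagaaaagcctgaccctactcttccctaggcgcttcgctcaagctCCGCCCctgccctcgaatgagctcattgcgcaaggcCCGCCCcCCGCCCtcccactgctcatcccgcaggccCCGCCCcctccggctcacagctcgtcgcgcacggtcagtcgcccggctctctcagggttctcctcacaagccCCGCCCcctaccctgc
Rrm1, chr7:102441445-102441694, plus strand: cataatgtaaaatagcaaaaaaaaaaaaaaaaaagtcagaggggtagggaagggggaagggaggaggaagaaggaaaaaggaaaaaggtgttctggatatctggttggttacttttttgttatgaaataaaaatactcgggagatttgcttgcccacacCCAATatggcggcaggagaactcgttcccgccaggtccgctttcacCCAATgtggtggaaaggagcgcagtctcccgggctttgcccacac
Tk1, chr11:117826015-117826264, minus strand: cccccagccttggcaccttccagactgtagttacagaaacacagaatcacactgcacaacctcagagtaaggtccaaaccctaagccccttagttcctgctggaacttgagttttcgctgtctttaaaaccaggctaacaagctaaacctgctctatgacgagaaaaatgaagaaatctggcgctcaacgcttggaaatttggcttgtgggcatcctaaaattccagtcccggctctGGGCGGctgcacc

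The E2F letters TTTCCCGC, TTTCGCGC, TTTGCCGC and TTTGGCGC, searched on both strands of these 250 bases, were in 0 of the 7 member windows and in 1.9% of 32851 windows of the RefSeq table. A CCAAT box stood in 2 of the 7 (Rrm1, with 2 matches, and Rrm2), against 33.8% of all windows, and TTTGAA in 1 (Dck), against 16.0%. GC boxes were in 6 of the 7, with 5 matches in Dck and 0 in Rrm1, against 32.7% of all windows. TATAAA was in 0 of the 7 and in 12.4% of all windows. No match in the member windows overlapped another. These are counts of letters in a short window.

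Before the results, 1 feature of the untreated wildtype arrays bears on every comparison that uses them. Their 3 arrays had a mean signal of 132 for Xist, the transcript of the inactive X chromosome, while the other group means were between 2379 and 3443. The Y-linked Eif2s3y had a mean of 478 there and of at most 6.6 in the other groups. Genotype or treatment and the source of that culture cannot be told apart in the untreated genotype comparison, in the wildtype cisplatin effect or in the difference of the cisplatin effects. The genotype comparison after cisplatin and the cisplatin effect in Rb null cells do not use these arrays, and fitted without them they gave the same member counts as below, 5 and 4. If the arrays of a group share their RNA, as the design has it, a difference between cultures cannot be told apart there either. The Rb1 probe set had a mean of 89.6 in cisplatin-treated Rb null and 383 in cisplatin-treated wildtype cells, and of 94.0 in untreated Rb null and 460 in untreated wildtype cells. Of 9 fibroblast markers Vim was the highest (14648 to 17117), while Pdgfra (52.6 to 351.3) and Pdgfrb (112.1 to 1011) were low on some arrays. The 9 signals summed to between 43893 and 44662 on cisplatin-treated Rb null arrays, 55680 and 58002 on cisplatin-treated wildtype arrays, 63921 and 66291 on untreated Rb null arrays, and 63894 and 66954 on untreated wildtype arrays. The 10 macrophage and leukocyte markers summed to 5656 to 5861, 10706 to 11245, 6860 to 7154 and 4992 to 5318 in the same order of groups, with 0 markers at 0. The 6 epithelial markers summed to 554 to 608, 748 to 940.0, 318 to 462 and 407.5 to 585 in that order, with Epcam and Cdh1 between 4.3 and 41.7. Among them the keratin gene Krt18 rose with cisplatin in Rb null cells (log2 2.13) and in wildtype cells (2.31). The 4 endothelial markers summed to between 222 and 518 on the 12 arrays, most of it from Kdr (118 to 339). By the test given below, 7 of the 10 macrophage and leukocyte markers were lower in Rb null cells after cisplatin (13.3% of all genes). There 0 were higher (9.67%). Cisplatin lowered 7 and raised 2 of these 10 in Rb null cells (20.3% and 16.6%). In wildtype cells it lowered 0 and raised 5 (12.7% and 14.8%). The part of these shifts in the results was not tested. The 3' to 5' ratio of the Gapdh control lay between 0.759 and 0.881 on the 12 arrays. The 18S RNA control moved with the groups: its 3' signal was 282 to 462 on cisplatin-treated Rb null arrays, 188 to 245 on cisplatin-treated wildtype arrays, 102 to 122 on untreated Rb null arrays and 92 to 121 on untreated wildtype arrays. Its 3' to 5' ratio was 2.07 to 2.54, 3.69 to 4.43, 4.48 to 19.6 and 5.7 to 10.9 in the same order, and its part in the results was not tested.

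Signals below are the deposited linear values. A log2 change comes from a fit to all 12 arrays after adding 10.4 to each signal, which understates the change of weak genes. A gene passed if its adjusted p was under 0.05 and its change at least 1.5-fold. Errors are SD for signals and standard errors for log2 changes. In bulk RNA, fewer cells of a kind and less RNA per cell cannot be told apart.

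Rrm2, the small subunit used in S phase, was highest with both Rb loss and cisplatin. It had 7989.5, 8098 and 8223 on cisplatin-treated Rb null arrays, against 4560.3, 4448 and 4451 on cisplatin-treated wildtype arrays. It had 4739, 4766 and 4742 on untreated Rb null arrays, against 1796.5, 1817 and 1875 on untreated wildtype arrays. No 2 groups overlapped. Rb null cells were higher by log2 0.85 ± 0.05 after cisplatin (adjusted p = 4.68e-09) and by 1.37 ± 0.05 without it (adjusted p = 5.14e-11). Cisplatin raised Rrm2 by log2 0.77 ± 0.05 in Rb null cells (adjusted p = 2.35e-09) and by 1.29 ± 0.05 in wildtype cells (adjusted p = 1.83e-11). The difference of these effects was log2 -0.52 ± 0.06 (adjusted p = 2.74e-05), too small for the 1.5-fold rule. Quantile normalization gave -0.68 ± 0.06 (adjusted p = 2.52e-06), which passed. The other 2 probe sets of Rrm2 passed in the same 4 comparisons of 2 groups and in the same directions. On the one with a suffix for possible cross-hybridization, cisplatin-treated wildtype arrays stood above untreated Rb null arrays, 5744 ± 337 against 5296 ± 61.1, where the other probe sets had the reverse order.

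Rrm1, the large subunit, was higher in untreated Rb null than in untreated wildtype cells, and in Rb null cells it was lower with cisplatin. Its signals were 2389, 2565 and 2595.5 on cisplatin-treated Rb null arrays, against 2058, 2073 and 2087 on cisplatin-treated wildtype arrays. They were 4006, 4218 and 3905 on untreated Rb null arrays, against 1766, 1722 and 1632 on untreated wildtype arrays. The untreated Rb null arrays were the highest, and again no 2 groups overlapped. Cisplatin lowered Rrm1 in Rb null cells (log2 -0.68 ± 0.06, adjusted p = 1.18e-07), while the wildtype change of 0.28 ± 0.06 was below the 1.5-fold minimum (adjusted p = 0.00096). The difference between these effects was log2 -0.96 ± 0.08 (adjusted p = 8.02e-07). The genotype difference was 0.28 ± 0.06 after cisplatin, which did not pass, and 1.24 ± 0.06 in untreated cells, which did (adjusted p = 9.77e-10). The fall in Rb null cells was below the minimum on the other probe set (log2 -0.48 ± 0.11), and on the first when each array was centred on its median (-0.54 ± 0.07).

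Rrm2b, the small subunit known as p53R2 and induced by p53 in human and mouse cells, had a narrow range. Its signals were 385, 388 and 340.3 on cisplatin-treated Rb null arrays, against 364, 299 and 319 on cisplatin-treated wildtype arrays. They were 319, 303 and 283 on untreated Rb null arrays, against 449, 388 and 416 on untreated wildtype arrays. The untreated wildtype arrays were the highest by a narrow gap, 388.4 on array 2 against 387.6 on cisplatin-treated Rb null array b. The remaining 3 groups overlapped with their neighbours in order. No contrast of 2 groups passed: the log2 values were 0.18 ± 0.10 for genotype after cisplatin, -0.46 ± 0.10 for genotype without it, 0.29 ± 0.10 for cisplatin in Rb null cells and -0.34 ± 0.10 for cisplatin in wildtype cells. Adjusted p was 0.162, 0.00306, 0.0221 and 0.0103 in that order, so 3 of the 4 missed by the fold minimum alone. The difference of the cisplatin effects passed at log2 0.63 ± 0.14 (adjusted p = 0.00326), but fell below 1.5-fold without cisplatin-treated wildtype array b (0.57 ± 0.15) or without untreated wildtype array 1 (0.58 ± 0.15), and with the 25th percentile of the signals, 45.8, as the added constant (0.58 ± 0.13). Only 1 probe set measured it.

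**Figure D1:**
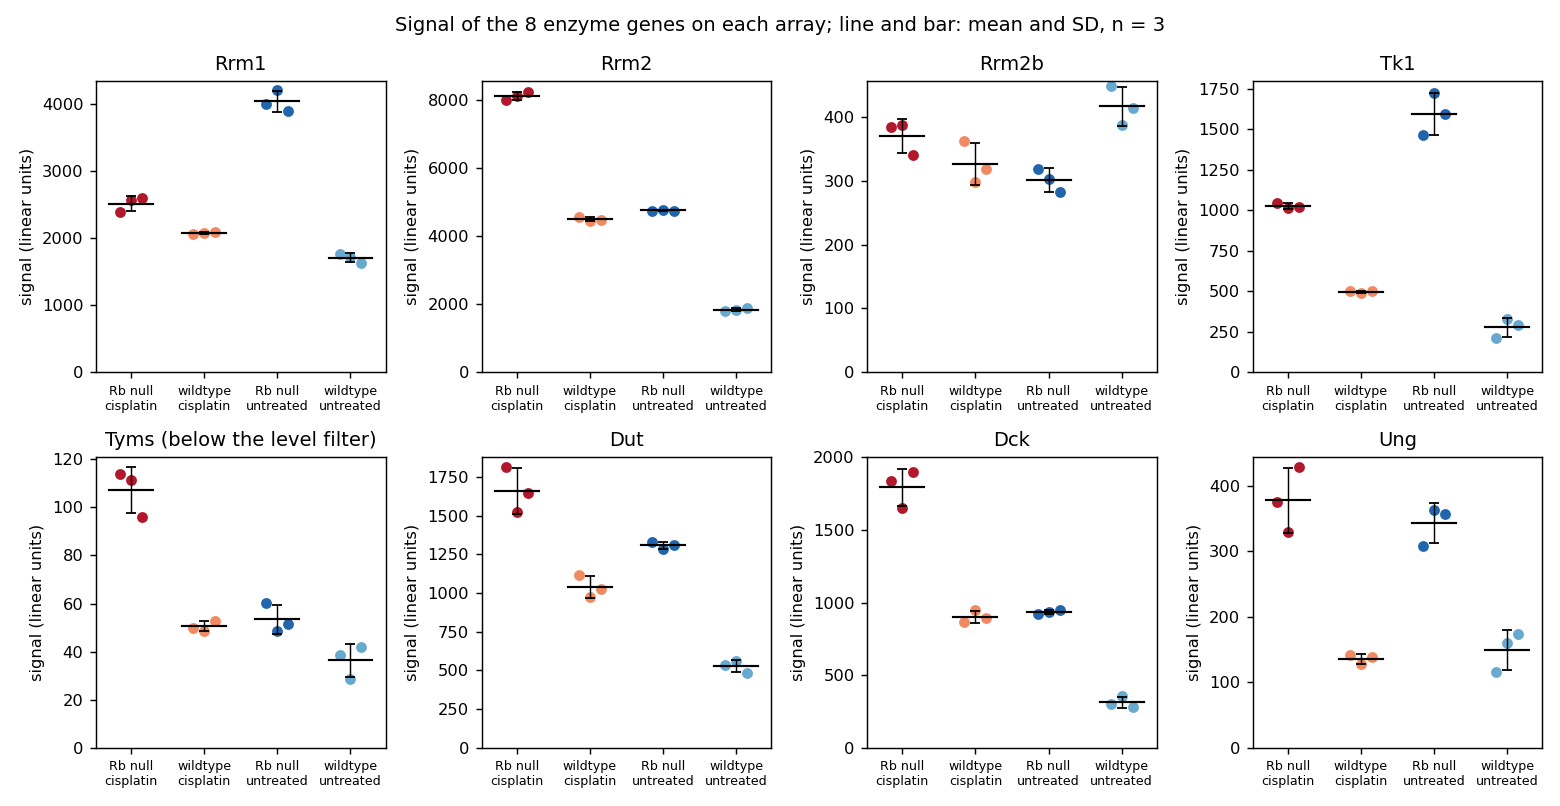
Signal of each enzyme gene (vertical axis, linear units from 0) on the 3 arrays of each group (points), with mean (line) and SD (bar). Rrm2 and Dck are highest in cisplatin-treated Rb null cells, Rrm1 and Tk1 in untreated Rb null cells, and Rrm2b in untreated wildtype cells; Tyms is shown with its brightest probe set, which was below the level filter.

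Tk1, thymidine kinase of the cytosol, had the largest genotype difference of the 7 tested members in untreated cells, though not after cisplatin, where Ung had a larger one. It had 1048, 1017 and 1019 on cisplatin-treated Rb null arrays, against 503, 491 and 498 on cisplatin-treated wildtype arrays. It had 1467, 1723 and 1597 on untreated Rb null arrays, against 212, 327 and 291 on untreated wildtype arrays. The 4 groups were separate. The genotype difference was log2 1.03 ± 0.12 after cisplatin (adjusted p = 7.92e-06), and 2.50 ± 0.12 without it. Cisplatin moved Tk1 in opposite directions, by log2 -0.63 ± 0.12 in Rb null cells (adjusted p = 0.000376) and by 0.84 ± 0.12 in wildtype cells (adjusted p = 3.62e-05). These effects differed by log2 -1.47 ± 0.17 (adjusted p = 1.51e-05), the widest difference among the 7 tested members. The fall in Rb null cells was below 1.5-fold without untreated Rb null array 2 (-0.57 ± 0.14) and with arrays centred on the median (-0.48 ± 0.12). Tk1 had 1 probe set.

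Dut, which encodes dUTPase, had 1814, 1520.3 and 1646 on cisplatin-treated Rb null arrays, against 1114, 977 and 1026 on cisplatin-treated wildtype arrays. It had 1328, 1285 and 1310.0 on untreated Rb null arrays, against 536, 558 and 484 on untreated wildtype arrays. Groups did not overlap, and the order was that of Rrm2. Rb null cells were higher by log2 0.67 ± 0.08 after cisplatin (adjusted p = 1.29e-05) and by 1.3 ± 0.08 without it (adjusted p = 2.02e-08). Cisplatin gave log2 0.34 ± 0.08 in Rb null cells, under the fold minimum (adjusted p = 0.00238), and raised Dut by 0.97 ± 0.08 in wildtype cells (adjusted p = 1.78e-07). The difference of -0.63 ± 0.12 passed (adjusted p = 0.000753). It dropped below 1.5-fold without cisplatin-treated Rb null array b (-0.57 ± 0.12), cisplatin-treated wildtype array a (-0.58 ± 0.12) or untreated wildtype array 3 (-0.57 ± 0.12), and under median centring (-0.53 ± 0.13). A weaker probe set of Dut, between 21.1 and 125.7 on the 12 arrays, was not tested. Its order was another: untreated Rb null arrays (105.3 to 125.7) stood above cisplatin-treated Rb null arrays (85.9 to 101.1).

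Tyms, which encodes the target of fluorouracil-type drugs, was left out of the test by the level filter, since its 3 probe sets were all among the 40% of lowest mean signal. The brightest of them had 114, 111 and 96.1 on cisplatin-treated Rb null arrays, against 49.9, 48.7 and 52.8 on cisplatin-treated wildtype arrays. It had 60.2, 48.5 and 51.4 on untreated Rb null arrays, against 38.4, 28.5 and 42.0 on untreated wildtype arrays. The cisplatin-treated Rb null arrays stood apart above the rest and the untreated wildtype arrays below. Fitted without the filter, Tyms was higher in Rb null than in wildtype cells after cisplatin (log2 0.95 ± 0.19, adjusted p = 0.00192) and rose with cisplatin in Rb null cells (0.88 ± 0.19, adjusted p = 0.00196). It did not pass for genotype in untreated cells (0.46 ± 0.19, adjusted p = 0.127) or for cisplatin in wildtype cells (0.39 ± 0.19, adjusted p = 0.137). Nor did the difference of the cisplatin effects (0.49 ± 0.27, adjusted p = 0.241). The other 2 probe sets ranged from 3.8 to 65.4, with overlap between all neighbouring groups. Without detection calls, a signal of this size has no stated background, and 1 further probe set that the annotation gives to Tyms together with a pseudogene was not used.

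Dck phosphorylates deoxycytidine and deoxycytidine-like drugs. Its signals were 1834, 1649 and 1896 on cisplatin-treated Rb null arrays, against 863.5, 947 and 896 on cisplatin-treated wildtype arrays. They were 919, 931.5 and 946 on untreated Rb null arrays, against 304, 354 and 280.2 on untreated wildtype arrays. The cisplatin-treated wildtype and untreated Rb null arrays overlapped, and the cisplatin-treated Rb null arrays were the highest. The genotype difference was log2 0.98 ± 0.09 after cisplatin (adjusted p = 6.39e-07) and 1.55 ± 0.09 without it (adjusted p = 6.56e-09). Cisplatin raised Dck by log2 0.93 ± 0.09 in Rb null cells (adjusted p = 3.49e-07) and by 1.5 ± 0.09 in wildtype cells (adjusted p = 3.29e-09). All 3 probe sets passed in these 4 comparisons, from log2 0.85 to 2.01. The difference of the effects, -0.57 ± 0.13 (adjusted p = 0.00264), missed 1.5-fold, and passed without untreated wildtype array 2 (-0.66 ± 0.12), cisplatin-treated Rb null array a (-0.59 ± 0.14) or c (-0.61 ± 0.14), or cisplatin-treated wildtype array a (-0.60 ± 0.14).

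Ung, the uracil glycosylase, differed with genotype and showed no detectable cisplatin effect. It had 375, 329.9 and 429 on cisplatin-treated Rb null arrays, against 142, 127.5 and 139 on cisplatin-treated wildtype arrays. It had 308, 364 and 357 on untreated Rb null arrays, against 115, 159.5 and 174 on untreated wildtype arrays. The Rb null arrays were all above the wildtype arrays, and within a genotype treated and untreated arrays overlapped. The genotype difference was log2 1.40 ± 0.15 after cisplatin (adjusted p = 2.81e-06) and 1.16 ± 0.15 without it (adjusted p = 2.69e-05). The cisplatin effect was log2 0.13 ± 0.15 in Rb null cells (95% interval -0.18 to 0.45) and -0.11 ± 0.15 in wildtype cells (-0.42 to 0.21). The difference of these effects was 0.24 ± 0.21 (adjusted p = 0.391).

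**Figure D2:**
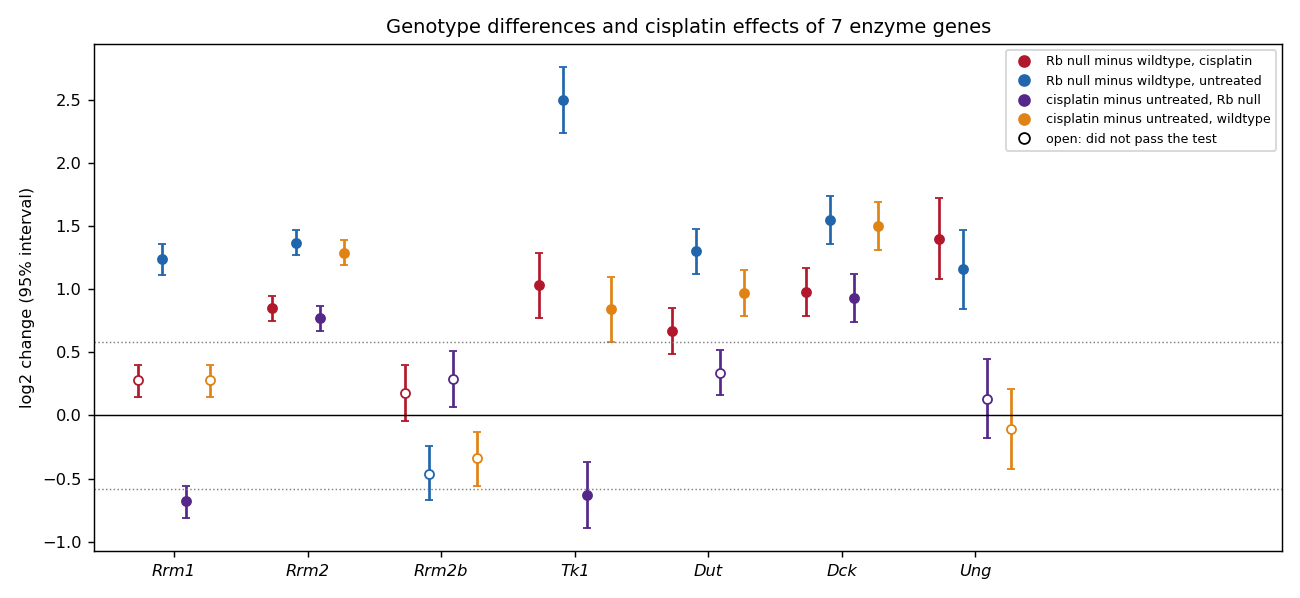
Log2 change (vertical axis) of the 7 tested genes in 4 comparisons, with 95% intervals; filled points passed the test, and dotted lines mark 1.5-fold. Both genotype differences of 6 genes are above 0 and that of Rrm2b in untreated cells is -0.46, while cisplatin effects range from -0.68 for Rrm1 in Rb null cells to 1.5 for Dck in wildtype cells.

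Read together by comparison, 7 of the 8 genes were tested. After cisplatin, 5 of the 7 were higher in Rb null cells and 0 lower, where 9.67% of 7945 genes were higher and 13.3% lower. In untreated cells 6 of the 7 were higher and 0 lower, where 8.07% of genes were higher and 5.08% lower. In Rb null cells cisplatin raised 2 members (Rrm2 and Dck) and lowered 2 (Rrm1 and Tk1), where 16.6% of genes rose and 20.3% fell. In wildtype cells it raised 4 (Rrm2, Tk1, Dut and Dck) and lowered 0, where 14.8% of genes rose and 12.7% fell. The difference of the cisplatin effects passed as positive for Rrm2b and as negative for Tk1, Rrm1 and Dut, where 8.7% of genes were positive and 15% negative. The median log2 value of all genes lay between -0.07 and 0.06 in the 5 comparisons. Centring arrays on the median moved that of the cisplatin effect in Rb null cells to 0.13, against -0.02 as deposited, and the share of higher genes among those called there to 58%, against 44.9%. For the difference of the cisplatin effects that share moved to 51.3%, against 36.7%, and for genotype after cisplatin to 51.3%, against 42%. Of the 12 tested probe sets of these genes, 9 passed as higher in Rb null cells after cisplatin and 11 in untreated cells. Because the cisplatin comparisons share no arrays with each other but both share arrays with the genotype comparisons, the signs across comparisons are not separate evidence.

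**Figure D3:**
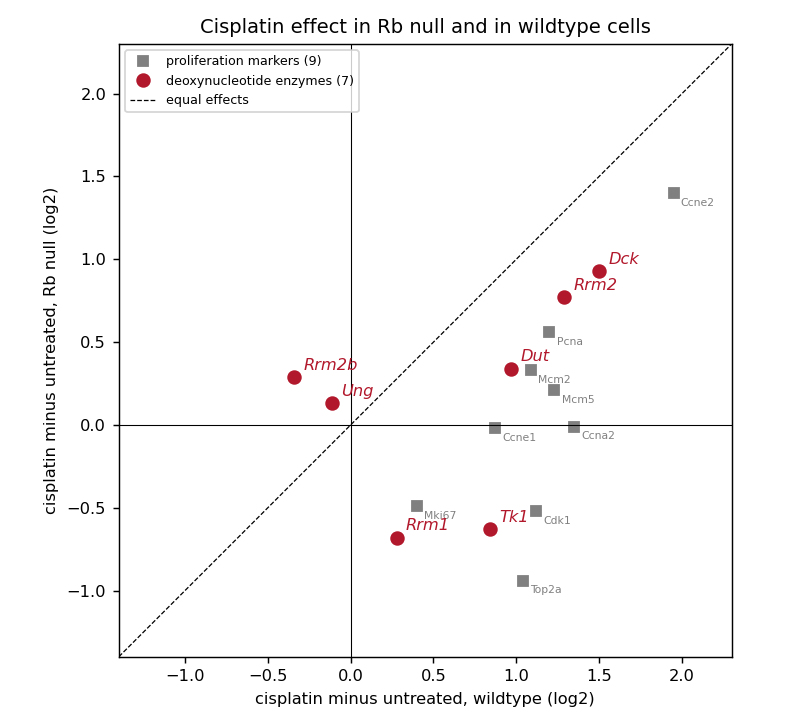
Cisplatin effect in Rb null cells (vertical axis) against that in wildtype cells (horizontal axis), both as log2 change, for the 7 tested enzyme genes (circles) and 9 proliferation markers (squares); the dashed line marks equal effects. Tk1 lies at -0.63 and 0.84, near Cdk1 and Top2a, whereas Rrm2 at 0.77 and 1.29 and Dck at 0.93 and 1.5 lie nearer to Pcna and Ccne2.

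Proliferation markers shared the direction of most members in the genotype comparisons, but not that of Rrm2b in untreated cells (log2 -0.46). After cisplatin 7 of 9 were higher in Rb null cells (9.67% of all genes), and in untreated cells 9 of 9 (8.07%). In wildtype cells cisplatin raised 8 of 9 (14.8% of all genes), while of the members Rrm1, Rrm2b and Ung did not pass there. In Rb null cells it raised 1 of 9, Ccne2, a cyclin of S phase entry (log2 1.40 ± 0.13). It lowered 1, Top2a, the topoisomerase of dividing cells (-0.94 ± 0.09), where 16.6% of all genes rose and 20.3% fell. The summed signal of the 9 was 24725 to 25093 on cisplatin-treated Rb null arrays, 15545 to 15911 on cisplatin-treated wildtype arrays, 22106 to 22672 on untreated Rb null arrays and 6882 to 7186 on untreated wildtype arrays. How far the members' changes follow the share of dividing cells was not tested.

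Most genes of a list of p53 targets rose with cisplatin, where Rrm2b did not pass. Of 16 tested targets, a list without Rrm2b, 10 rose in Rb null cells (16.6% of all genes) and 10 in wildtype cells (14.8%). The rest did not pass in either direction, with lowest values of log2 -0.14 in Rb null and -0.31 in wildtype cells. Medians were log2 0.85 and 0.91, against -0.02 and 0.06 for all genes. In Rb null cells the largest of these changes were in Perp, a membrane protein of apoptosis (log2 2.76 ± 0.14), Pmaip1, which encodes the cell death protein Noxa (2.47 ± 0.11), the death receptor gene Fas (2.11 ± 0.15) and Trp53inp1 (1.88 ± 0.10). In wildtype cells they were in Perp (2.40 ± 0.14), Trp53inp1 (1.97 ± 0.10), Btg2, an inhibitor of proliferation (1.71 ± 0.15), and Fas (1.46 ± 0.15).

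The neighbouring steps of nucleotide metabolism, listed by role, did not all share the members' pattern. Of the thymidylate and folate genes 3 of 5 could be tested. In untreated cells all 3 were higher with Rb loss (8.07% of all genes): Mthfd1 (folate interconversion, log2 1.16 ± 0.11), Dtymk (thymidylate kinase, 1.07 ± 0.14) and Shmt1 (serine hydroxymethyltransferase, 1.06 ± 0.25). After cisplatin Mthfd1 alone of the 3 passed (0.62 ± 0.11), where 9.67% of all genes were higher. Cisplatin raised Shmt1 and Mthfd1 in wildtype cells (14.8% of all genes), and 0 of the 3 passed in Rb null cells.

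Among 9 other nucleoside and nucleotide kinases, 1 was higher in untreated Rb null cells (8.07% of all genes) and 1 lower after cisplatin (13.3%). Adk, which phosphorylates adenosine, had a mean signal of 95.5 ± 8.8 in cisplatin-treated Rb null cells and 1052 ± 147 in untreated Rb null cells (log2 -3.32 ± 0.12). In wildtype cells it had 144 ± 12.8 with cisplatin and 637.5 ± 62.3 without (-2.07 ± 0.12). Of the 9 kinases it had the largest cisplatin effect in both genotypes, and its direction was opposite to that of Dck. The uridine-cytidine kinase Uck2 fell with cisplatin in Rb null cells (-1.16 ± 0.08), as did the nucleotide kinase Cmpk1 (-0.62 ± 0.07).

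Of the genes of nucleoside breakdown and pool cleaning 10 could be tested. In Rb null cells cisplatin raised 5 and lowered 1 of them, where 16.6% of all genes rose and 20.3% fell. In wildtype cells it raised 5 and lowered 0, where 14.8% rose and 12.7% fell. Purine nucleoside phosphorylase, Pnp, averaged 8151 ± 145.5 in cisplatin-treated and 2444 ± 115 in untreated Rb null cells, and 4840 ± 196 in cisplatin-treated and 2301 ± 119 in untreated wildtype cells. Uridine phosphorylase (Upp1), adenosine deaminase (Ada) and cytidine deaminase (Cda) rose in both genotypes, with log2 values of 2.10 ± 0.39, 1.52 ± 0.11 and 1.88 ± 0.14 in Rb null cells and of 3.15 ± 0.39, 1.28 ± 0.11 and 1.22 ± 0.14 in wildtype cells. The size of the Upp1 change in wildtype cells is uncertain, since its signal was 313 to 419 with cisplatin and 6.9 to 61.5 without, where the added constant weighs on the log2 value. Samhd1, which breaks down dNTPs, fell in Rb null cells (-1.10 ± 0.15), and was higher in Rb null than in wildtype cells without the drug (0.98 ± 0.15). Dctpp1, a dCTP pyrophosphatase, was higher in Rb null cells with cisplatin (0.94 ± 0.08) and without (0.98 ± 0.08).

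The donors of electrons to ribonucleotide reductase showed 0 called genotype differences of 5 in untreated cells by limma, and 1 after cisplatin (Glrx2, -0.61 ± 0.07). Of all genes, 8.07% were higher and 5.08% lower in untreated Rb null cells, and 9.67% and 13.3% after cisplatin. In untreated cells 3 of the 5 had an adjusted p under 0.05 with a change below 1.5-fold. Glutaredoxin, Glrx, rose with cisplatin by log2 1.18 ± 0.09 in Rb null and 1.07 ± 0.09 in wildtype cells. Glrx2 fell with cisplatin in Rb null cells (-0.67 ± 0.07), and its change in wildtype cells (-0.44 ± 0.07) was below the fold minimum. Purine synthesis genes, 10 tested, had 2 higher in Rb null cells after cisplatin (9.67% of all genes) and 3 in untreated cells (8.07%). Prps2, which makes the ribose donor PRPP, rose by log2 1.10 ± 0.10 with cisplatin in Rb null and by 0.76 ± 0.10 in wildtype cells. Of 5 pyrimidine synthesis genes, Cad, which carries the opening steps, was higher with Rb loss after cisplatin (0.93 ± 0.07) and without it (0.96 ± 0.07). Umps was higher too (1.06 ± 0.13 after cisplatin and 0.7 ± 0.13 without it), while the CTP synthase gene Ctps2 was lower after cisplatin (-0.94 ± 0.12). In Rb null cells cisplatin raised 2 of the 5, Umps (0.91 ± 0.13) and Cad (0.61 ± 0.07). It lowered 2, Ctps2 (-1.25 ± 0.12) and Dhodh, which encodes dihydroorotate dehydrogenase (-0.99 ± 0.16). There 16.6% of all genes rose and 20.3% fell.

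Of 4 base excision genes beside Ung, 2 could be tested. Mbd4, a glycosylase for thymine and uracil opposite guanine, had 1035 ± 52.1 in cisplatin-treated Rb null cells, against 157 ± 19.3 in cisplatin-treated wildtype cells, and 168 ± 18.2 in untreated Rb null, against 101.5 ± 13.4 in untreated wildtype cells. Its cisplatin effect was thus log2 2.55 ± 0.13 in Rb null cells and differed from that in wildtype cells by 1.97 ± 0.18 (adjusted p = 1.55e-06). Ung, by contrast, did not change detectably with cisplatin in either genotype.

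**Figure D4:**
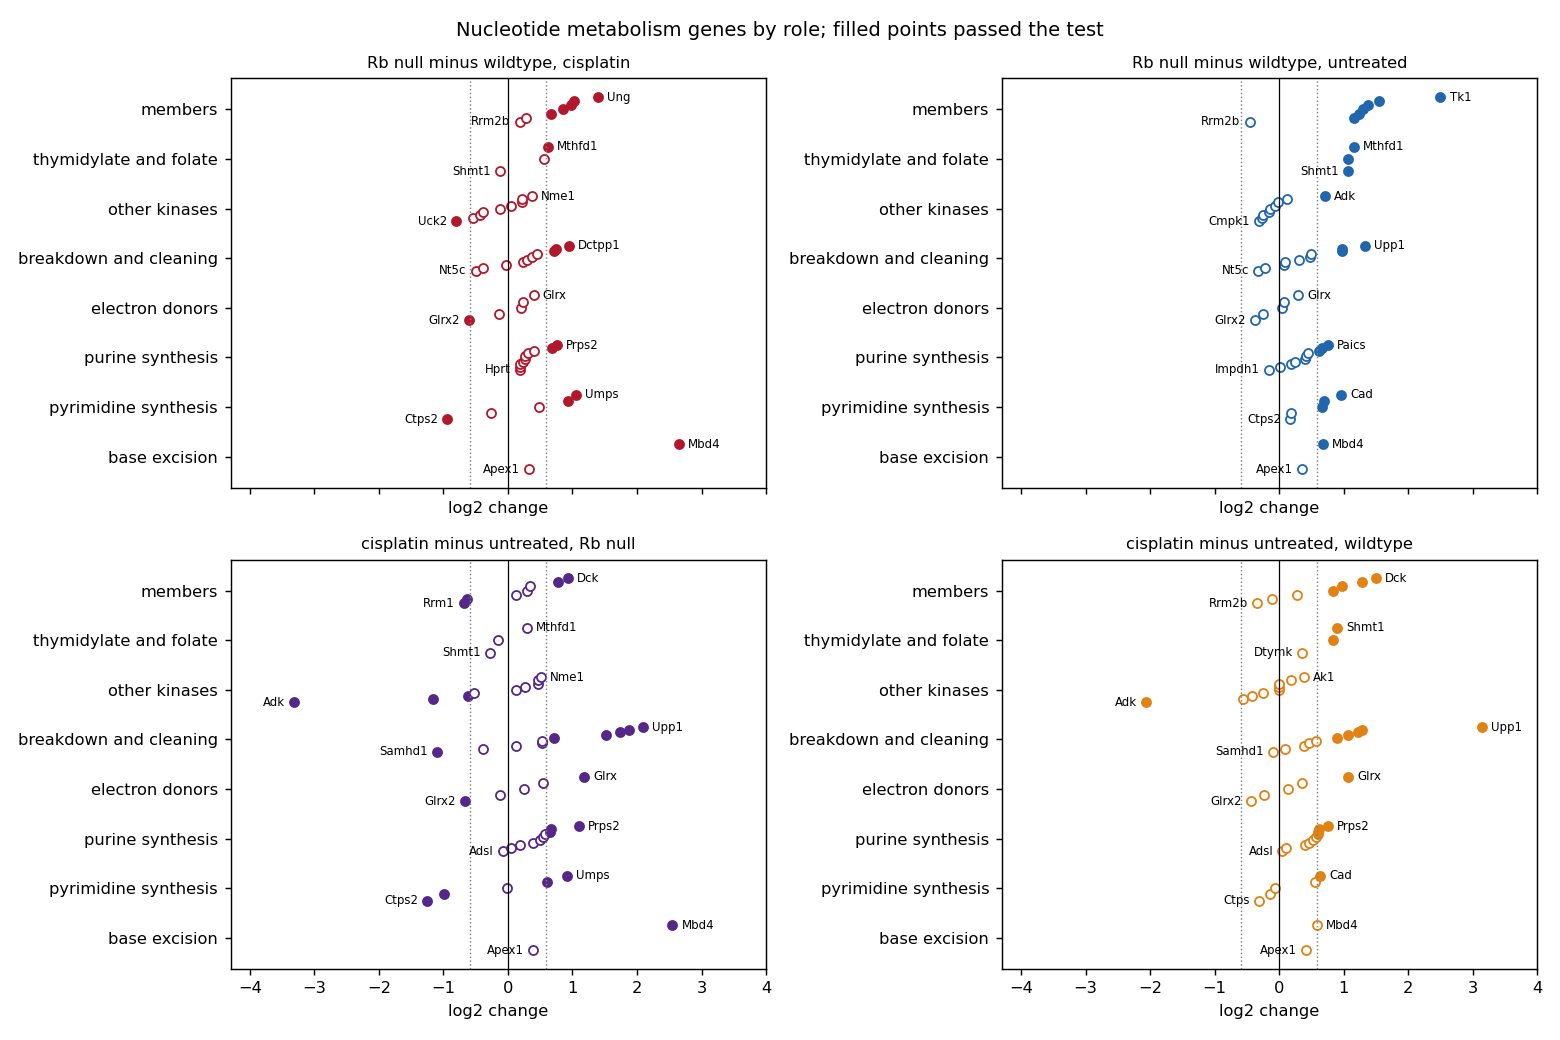
Log2 change (horizontal axis) of the tested members and of 7 lists of other nucleotide metabolism genes (rows), in 4 comparisons (panels); points are genes, filled where they passed the test, and dotted lines mark 1.5-fold. The lowest and highest gene of each row is named, and Adk, at -3.32 and -2.07, is the lowest point of both cisplatin panels.

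The genes most like each member were those with the highest Pearson r of log2 signal over the 12 arrays among 7835 named genes, a description in which arrays of a group share their RNA. For Rrm2 these were Dnajc9 (0.998), Pcna (0.995) and Ckap2 (0.994), and for Dck they were Dnajc9 (0.994), E2f8 (0.994) and Cdc20 (0.992). For Tk1 they were Pwwp3a (0.990), Cdca3 (0.989) and Tmpo (0.988), and for Rrm1 they were Cdca7l (0.984), Nusap1 (0.982) and Prc1 (0.981). Dut was most like Slc43a3, Osmr and Fignl1 (0.991 to 0.993), and Ung most like Brca2 (0.975), Rif1 (0.966) and Cibar1 (0.949). For Rrm2b the values were lower, with Crb3 (0.888), Noct (0.881) and Itgb1bp1 (0.880). Among the members themselves, Rrm2 and Dck were at 0.994 and Rrm2 and Rrm1 at 0.535, and each r of Rrm2b with another member was negative (-0.701 to -0.321).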

How the data were processed

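For each of 12 arrays the authors deposited 1 linear signal intensity for every probe set, made with MAS5 per the submitters' processing notes; the MAS5 version, scaling target and detection calls are not given in the sources used here. The trimmed mean of each array was 500.1 or 500.2, so no further scaling was applied. Of 22690 probe sets 64 controls were left out, then the 40% with the lowest mean log2 signal, which left 13575 tested. Tests used log2 of the intensity plus 10.4, which is the 10th percentile of all values. Single genes were named for 20380 probe sets (691 had several, 1555 none). One probe set per gene (7945) was taken, avoiding cross-hybridization suffixes and then by highest mean. limma 3.58.1 in R 4.3.3 fitted 1 mean per group (lmFit, eBayes with trend, two-sided, Benjamini-Hochberg over 13575 probe sets), with 8 residual and 6.09 prior degrees of freedom. On simulated data for the untreated genotype comparison, with 13575 probe sets, the fit recovered 38.3% of the changes at 1.5-fold, 91.4% at 2-fold and 99.7% at 4-fold. The simulated spread was that of arrays within a group, so these rates leave out variation between cultures. Changes of 1.5-fold lay on the fold minimum itself, which limits their recovery. What can be learned of a genotype or cisplatin effect is limited by the 4 RNA samples of the design, and not only by the number of arrays.

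The named genes were all members, from each list up to 4 called genes with the largest change in a comparison, the 3 genes most like each tested member, and Rb1 and sex-linked transcripts as a check. Pcna and Cdk1 in a caption, and the low or high cell type markers, were named after their values were seen. Members and lists were chosen with earlier results of these data known. Same-labelled arrays of the 2 genotypes did not deviate together (r from -0.186 to 0.109), so no block was used.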

Additional observations from a re-analysis of the deposited data

Results flagged for a closer look

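The cisplatin effect differed between the genotypes for 4 of the 7 tested members, by a test of the difference itself (limma, 3 arrays per group) with a 1.5-fold minimum, which Rrm2 (-0.52, adjusted p = 2.74e-05) and Dck (-0.57, adjusted p = 0.00264) missed. The effect in Rb null cells minus that in wildtype cells was log2 -1.47 for Tk1 (adjusted p = 1.51e-05), -0.96 for Rrm1 (adjusted p = 8.02e-07), -0.63 for Dut (adjusted p = 0.000753) and 0.63 for Rrm2b (adjusted p = 0.00326). Each of these differences uses the untreated wildtype arrays, whose sex-linked transcripts set them apart. The differences of Dut and Rrm2b fell below 1.5-fold when some single arrays were left out. Median centring did the same for Dut, and the larger added constant for Rrm2b. In this comparison 8.7% of 7945 genes passed as positive and 15% as negative. Negative differences were not particular to the members: of 9 proliferation markers 8 passed as negative and 0 as positive. The median was log2 -0.89 for these markers, -0.57 for the members and -0.07 for all genes.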

How the results depend on the processing

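The member counts were 5 for genotype after cisplatin, 6 for genotype in untreated cells, 4 for each cisplatin effect and 4 for the difference of effects. They stayed within 1.5 times of these under other pseudocounts, no level filter, a 60% filter, quantile normalization, no variance trend, no fold minimum, fits of only the 2 groups compared and the second probe set per gene. With no fold minimum every count rose, and Rrm2b passed as lower in untreated Rb null cells (log2 -0.46, limma adjusted p = 0.00306). Without each array in turn the cisplatin effect in Rb null cells had 3 to 4, the difference 3 to 5, and the other 3 comparisons kept their counts. With a replicate block, which could be fitted for the genotype comparisons and the difference, the counts were 5, 6 and 4 and no call of a member changed. No paired analysis was possible for the cisplatin effects, because treated and untreated arrays carry different labels. With arrays centred on the median, 2 members passed for cisplatin in Rb null cells, both higher. At a 2-fold minimum the counts were 2 for genotype after cisplatin, 0 for cisplatin in Rb null cells, 2 for cisplatin in wildtype cells and 1 for the difference. In limma the 7 members tested at that minimum in Rb null cells included 6 with an unadjusted and an adjusted p under 0.05. No member change reversed a call. Without the level filter Tyms passed as higher in Rb null cells after cisplatin (log2 0.95 ± 0.19) and as higher with cisplatin in Rb null cells (0.88 ± 0.19). It did not pass in the remaining comparisons.

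Over all probe sets, 3002 passed for genotype after cisplatin, 1678 for genotype in untreated cells, 4982 for cisplatin in Rb null cells, 3626 for cisplatin in wildtype cells and 3132 for the difference. In the same order the numbers were 1906, 1078, 3257, 2297 and 2021 with the 60% filter, which tests fewer probe sets, 928, 598, 2352, 1581 and 1191 at 2-fold, and 6968, 4598, 8756, 7413 and 5109 with no fold minimum. Weak signals such as those of Tyms are limited by the lack of detection calls.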
